A study of Mus musculus with 4 samples.

Results

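The genes described here are 9 markers of dentate gyrus granule cells, *Prox1*, *Dsp*, *C1ql2*, *C1ql3*, *Tdo2*, *Lct*, *Trpc6*, *Dock10* and *Calb1*, among the 26328 genes listed in at least 1 sample. They were taken by symbol and matched to their Ensembl gene IDs, and a gene missing from a sample counted as 0. The list was chosen by hand as known granule cell markers, with the KI and WT RPKM values of these same 4 samples in view, so the differences between genotypes below are a description and carry no test of these 9 genes. Hippocampal poly(A) RNA was sequenced from 2 WT and 2 *Lsd1* KI samples, all from male C57BL/6 mice. KI mice carry LSD1 with its PKCα phosphorylation site mutated from serine to alanine in both alleles (*Lsd1* SA/SA), and WT mice are their littermates. An age of 8 to 15 weeks is given for the mice of the behavioral experiments of the study, and whether each sample came from 1 mouse or from pooled tissue is not given in the sources used here. The spread between samples may therefore be technical as well as biological.

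Granule cells are the principal excitatory neurons of the dentate gyrus, the entry stage of the hippocampal circuit. They receive input from the entorhinal cortex and send mossy fibres to hilar mossy cells and to CA3 pyramidal cells. New granule cells are added throughout adult life. The homeobox factor PROX1 is required for granule cell identity, and the other markers encode synaptic organizers, calcium handling and signalling proteins, enzymes and a cell adhesion component that are enriched in these neurons within the hippocampus.

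Expression was given as RPKM, a read count divided by exon length and by the mapped reads of the sample. The exon length can include exons absent from the transcripts present, so levels of different genes compare only roughly. In GENCODE M21, *Dock10* has 11 transcripts and *C1ql2* has 1. Whole-read steps in the values gave an estimated depth of 13414957 and 8827967 mapped reads for WT, and of 14381252 and 14949756 for KI. Replicate 1 comes first in this and all later pairs of values. *Kdm1a*, which encodes LSD1, was at 11.6 and 11.2 RPKM in WT and at 11 and 11.2 RPKM in KI, a level that does not check a point mutation. All 9 markers were detected in all 4 samples and passed the filter of at least 0.5 RPKM in at least 2 samples, together with 18436 genes in all. *Prox1*, the defining factor, was at 10.2 RPKM or more in every sample, which does not show in bulk tissue which cells the transcripts came from.

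The promoters of 4 markers are shown, those of the 2 genes with the lowest ratio of KI to WT (*Prox1* and *Dsp*) and of the 2 genes with the highest level (*C1ql2* and *C1ql3*). Each sequence is the 250 bases before the start annotated by RefSeq (GRCm38.p6), which need not be the gene boundary given further on, read 5′ to 3′ on the strand of the gene. Capitals mark E-boxes (CANNTG, which reads the same on both strands as a pattern), the hexamer bound by basic helix-loop-helix factors such as NEUROD1 and CLOCK-BMAL1.
Prox1, chr1:190170828-190171077, minus strand: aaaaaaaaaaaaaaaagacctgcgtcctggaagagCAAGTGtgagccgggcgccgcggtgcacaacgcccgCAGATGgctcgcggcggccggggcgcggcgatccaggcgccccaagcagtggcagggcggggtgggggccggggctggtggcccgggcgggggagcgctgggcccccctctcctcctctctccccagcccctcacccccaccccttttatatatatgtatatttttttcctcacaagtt
Dsp, chr13:38151044-38151293, plus strand: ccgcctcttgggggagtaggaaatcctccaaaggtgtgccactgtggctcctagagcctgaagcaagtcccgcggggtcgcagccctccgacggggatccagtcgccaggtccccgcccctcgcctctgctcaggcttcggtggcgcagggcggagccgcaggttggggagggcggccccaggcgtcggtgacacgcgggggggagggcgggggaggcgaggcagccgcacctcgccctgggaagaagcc
C1ql2, chr1:120340332-120340581, plus strand: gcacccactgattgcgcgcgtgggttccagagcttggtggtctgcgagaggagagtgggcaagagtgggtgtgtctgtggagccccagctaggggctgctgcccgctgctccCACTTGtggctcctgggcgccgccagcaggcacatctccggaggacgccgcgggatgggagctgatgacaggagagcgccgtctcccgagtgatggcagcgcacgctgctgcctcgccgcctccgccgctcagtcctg
C1ql3, chr2:13010865-13011114, minus strand: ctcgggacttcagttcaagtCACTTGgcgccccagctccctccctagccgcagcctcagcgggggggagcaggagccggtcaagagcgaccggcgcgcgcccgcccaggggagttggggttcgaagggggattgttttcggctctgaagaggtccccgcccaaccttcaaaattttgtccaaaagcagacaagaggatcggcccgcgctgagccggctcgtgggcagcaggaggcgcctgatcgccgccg
The printed *Prox1* window held 2 E-boxes, the windows of *C1ql2* and *C1ql3* held 1 each, and that of *Dsp* held 0. The window of the other *Prox1* start, which is not printed, held 0 E-boxes. Of the 9 markers, 8 had a window in the RefSeq table, 10 windows in all because *Prox1* and *Dock10* have 2 starts. An E-box was found in 6 of these 10 windows, against 66.2% of all 32851 windows of the same length. The letters CACTTG, an E-box variant picked out after the sequences had been read, were found on either strand in 3 windows, those of *Prox1*, *C1ql2* and *C1ql3* printed above, against 11.6% of all windows. CACGTG, the E-box form preferred by CLOCK-BMAL1, was in 0 of the 10 windows and in 6.02% of all windows. CAGATG, a form bound by NEUROD factors, was in 3 of the 10 windows and in 14.4% of all windows. They were the printed *Prox1* window and both windows of *Dock10*. These 3 variants are special cases of CANNTG. A GC box (GGGCGG) was in 5 of the 10 windows, against 32.7% of all. TATAAA was in 2 windows (12.4% of all), CCAAT in 1 (33.8% of all) and the cyclic AMP response element TGACGTCA in 0 (1.55% of all), each on either strand. A match is a run of letters, not a site shown to be bound. The median GC content was 60.6% in the 10 windows and 52.4% in all windows.

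Levels of the 9 markers spanned from *C1ql2*, at a mean of 37.7 RPKM over the 4 samples, to *Tdo2*, at 1.98 RPKM. Between them came *C1ql3* (34.2), *Calb1* (21.1), *Dock10* (14.8), *Prox1* (14.4), *Lct* (9.67), *Dsp* (8.06) and *Trpc6* (7.03 RPKM). The 4-sample ranges of neighbouring genes in this order overlapped except between *C1ql3* and *Calb1* and between *Trpc6* and *Tdo2*. These ranges pool both genotypes, and the order depends on the exon length used for each gene. Within each of the 4 samples *C1ql2* was above *C1ql3* and *Calb1* was above *Dock10*. The lowest value of *Calb1*, 15.6 RPKM, was also above the highest of *Lct*, *Dsp* and *Trpc6*.

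**Figure D1:**
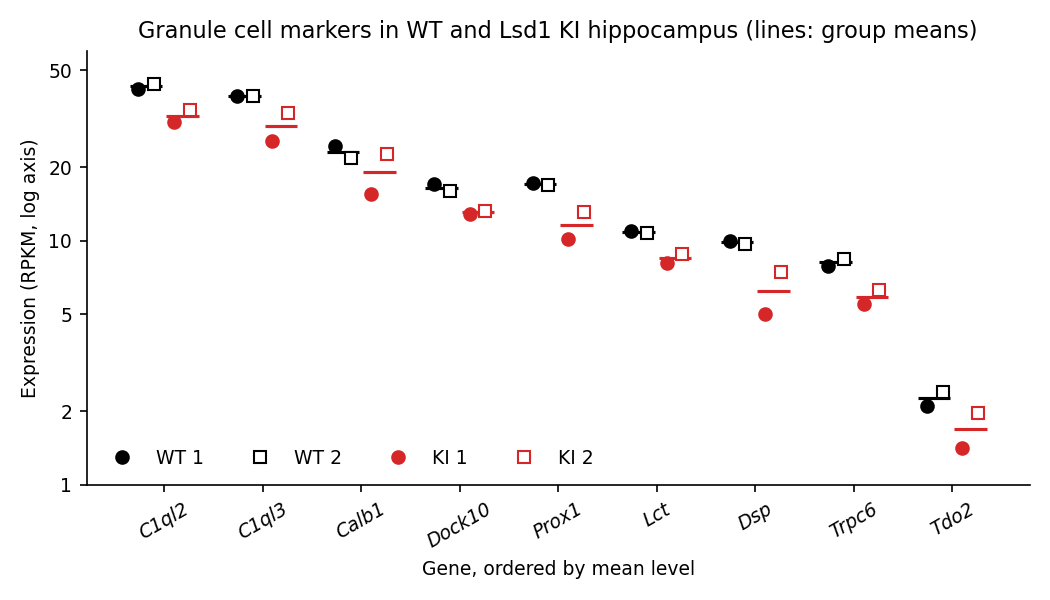
Expression (RPKM, log axis) of the 9 granule cell markers, ordered by mean level, in WT replicate 1 (filled black), WT replicate 2 (open black), KI replicate 1 (filled red) and KI replicate 2 (open red), with lines at the group means. Both KI points lie below both WT points for 8 genes, and for *Calb1* the second KI sample lies between the WT samples.

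All 9 markers had a lower mean in KI than in WT hippocampus. Both KI values lay below both WT values in 8 of the 9, the exception being *Calb1*, and this arrangement held for 18.1% of all 18436 genes. The opposite one, both KI values above both WT values, held for 0 of the 9 and for 24% of all genes. The ratio of the KI mean to the WT mean ran from 0.63 for *Dsp* to 0.82 for *Calb1* with a median of 0.75, whereas the median over all genes was 1.01. In the 8 separated genes the KI mean was also at least 1.2-fold lower, an arrangement seen in 5.32% of all genes, against 10.3% with both KI values above and at least 1.2-fold higher. By the ratio of means, 1 marker (*Dsp*) was at least 1.5-fold lower. In bulk tissue, fewer granule cells and less RNA of these genes per granule cell cannot be told apart.

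In the limma comparison across all genes, 0 of the 9 markers passed an adjusted p of 0.1 with a change of at least 1.2-fold, as did 0 of 18436 genes (0%). Without adjustment, 7 of the 9 had a limma p under 0.05 with a lower value in KI, against 3.33% of all genes, and the remaining 2 were *Tdo2* and *Calb1*. None of the 9 had such a p with a higher value in KI (6.3% of all genes, and 9.62% in either direction). These counts describe genes chosen with the values known, so their excess over the shares of all genes is no test of the markers.

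*Prox1* (ENSMUSG00000010175, chromosome 1, 190118035 to 190170714 in GRCm38) encodes the transcription factor that specifies and maintains granule cell identity. It was at 17.3 and 16.9 RPKM in WT and at 10.2 and 13.1 RPKM in KI. The WT samples were nearly equal, and both KI samples were below them, the first more than the second. The means were 17.1 ± 0.28 and 11.6 ± 2.06 RPKM (SD, n = 2 each), a ratio of 0.68. The log2 difference was -0.52 with a standard error of 0.12 on the log2(RPKM + 1) scale. Here and below this is the moderated error of limma, which borrows variance from all genes. The pooled SD within groups, equal to the unmoderated error at 2 samples per group, was 0.17 for *Prox1*. For the other markers it was 0.25 (*Dsp*), 0.08 (*C1ql2*), 0.19 (*C1ql3*), 0.16 (*Tdo2*), 0.05 (*Lct*), 0.09 (*Trpc6*), 0.05 (*Dock10*) and 0.27 (*Calb1*). Read numbers behind the RPKM values of *Prox1* were 1927 and 1239 for the WT samples, and 1220 and 1630 for the KI samples. An antisense gene, *Prox1os*, shares 133 of the 8390 exon bases of *Prox1* in GENCODE M21. Counting by strand is not stated, so reads of those bases cannot be assigned to either strand.

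*C1ql2* and *C1ql3* encode secreted C1q-like proteins. C1QL2 and C1QL3 are released from mossy fibres and organize kainate receptors on CA3 neurons. *C1ql2* (ENSMUSG00000036907, chromosome 1, 120340582 to 120343174) was at 41.8 and 44.0 RPKM in WT and at 30.7 and 34.2 RPKM in KI. *C1ql3* (ENSMUSG00000049630, chromosome 2, 13003457 to 13011806) was at 39.0 and 39.2 RPKM in WT and at 25.5 and 33.3 RPKM in KI. Groups did not overlap for either gene, and the ratios of means were close, at 0.76 and 0.75. The means were 42.9 ± 1.55 and 32.5 ± 2.51 RPKM for *C1ql2*, and 39.1 ± 0.177 and 29.4 ± 5.5 RPKM for *C1ql3* (SD, n = 2 each, WT first). The log2 differences were -0.39 (standard error 0.07) for *C1ql2* and -0.41 (standard error 0.13) for *C1ql3*. The level of *C1ql2* relative to *C1ql3* was 1.07 and 1.12 in WT and 1.2 and 1.03 in KI, so the KI samples lay on either side of both WT samples. Reads were kept only where they mapped uniquely. The exons of *C1ql3* overlap 2 gene models of the opposite strand (*Gm37811* and *Gm37824*), those of *Dsp* overlap 1 (*Gm10129*), and those of *C1ql2*, *Tdo2*, *Lct*, *Trpc6*, *Dock10* and *Calb1* overlap no other gene.

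Relatives and receptors of this pair were examined beside it. *C1ql1*, which encodes the family member known from climbing fibres of the cerebellum, was at 5.82 and 5.54 RPKM in WT and at 5.38 and 6.22 RPKM in KI, with overlapping groups. *C1ql4* was near the limit of detection, at most 0.13 RPKM. *Adgrb3*, whose product BAI3 is a receptor of C1q-like proteins, was at 10.8 and 10.2 RPKM in WT and at 10 and 9.57 RPKM in KI. *Grik2*, which encodes the GluK2 kainate receptor subunit of mossy fibre synapses, was at 9.30 and 8.85 RPKM in WT and at 7.46 and 7.90 RPKM in KI (ratio 0.85, log2 difference -0.21, adjusted p = 0.489 from limma). Both receptor genes had KI values below both WT values, and neither passed the test.

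*Calb1* (ENSMUSG00000028222, chromosome 4, 15881264 to 15908064) encodes calbindin, the cytosolic calcium buffer abundant in mature granule cells and also present in CA1 pyramidal cells and interneurons. It was at 24.4 and 21.8 RPKM in WT and at 15.6 and 22.6 RPKM in KI. The first KI sample was the lowest of the 4, while the second lay within the WT range. The WT and KI means were 23.1 ± 1.86 and 19.1 ± 4.96 RPKM (SD, n = 2 each). Its ratio of 0.82 therefore came from 1 sample, and the log2 difference of -0.29 (standard error 0.18) was -0.03 without KI replicate 1. *Pvalb*, the parvalbumin gene of fast-spiking interneurons, was at 15.5 and 16.0 RPKM in WT and at 21.2 and 19.1 RPKM in KI (log2 difference 0.33, adjusted p = 0.364 from limma).

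*Trpc6* (ENSMUSG00000031997, chromosome 9, 8544142 to 8680741) encodes a cation channel opened by diacylglycerol. It was at 7.90 and 8.41 RPKM in WT and at 5.53 and 6.27 RPKM in KI. The groups did not overlap, and the KI mean of 5.9 ± 0.523 RPKM was 0.72 of the WT mean of 8.16 ± 0.364 RPKM (SD, n = 2 each). The log2 difference was -0.41 with a standard error of 0.09. Of other channel genes of the family, *Trpc7* was at 0.527 and 0.616 RPKM in WT and at 0.454 and 0.437 RPKM in KI. The groups overlapped for *Trpc1*, *Trpc4* and *Trpc5*, with ratios of 1.02, 0.98 and 0.91.

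*Dock10* (ENSMUSG00000038608, chromosome 1, 80501073 to 80758527) encodes a guanine nucleotide exchange factor for small GTPases that shape dendritic spines. It was at 17.1 and 16.0 RPKM in WT and at 12.9 and 13.3 RPKM in KI, with means of 16.5 ± 0.774 and 13.1 ± 0.249 RPKM (SD, n = 2 each). The ratio was 0.79 and the log2 difference -0.32 with a standard error of 0.06. The KI samples were closest to each other in this gene, with 0.78 and 0.80 of the WT mean. Its paralogs had ratios of 0.95 (*Dock9*, both KI values below both WT values, adjusted p = 0.661 from limma) and 0.93 (*Dock11*, overlapping groups).

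*Tdo2* and *Lct* encode enzymes. Tryptophan 2,3-dioxygenase, the product of *Tdo2* (ENSMUSG00000028011, chromosome 3, 81957090 to 81976202), opens the kynurenine pathway. It was at 2.11 and 2.41 RPKM in WT and at 1.42 and 1.97 RPKM in KI. Its reads numbered 70 to 101 in a sample, the fewest of the 9 genes. The groups did not overlap, but the gap between the lower WT and the higher KI value was narrower than that between the KI samples. The means were 2.26 ± 0.214 and 1.69 ± 0.389 RPKM (SD, n = 2 each, ratio 0.75), and the log2 difference of -0.28 (standard error 0.14) was -0.13 without KI replicate 1. Of the other kynurenine pathway genes, *Ido1*, *Kmo* and *Kynu* were under 0.2 RPKM in every sample, *Ido2* was between 0.410 and 0.803 RPKM with overlapping groups, and *Afmid* was at 0.506 and 0.768 RPKM in WT and at 0.884 and 0.945 RPKM in KI (adjusted p = 0.641 from limma). *Lct* (ENSMUSG00000026354, chromosome 1, 128284756 to 128328318) encodes lactase, an intestinal disaccharidase whose transcript marks granule cells in the hippocampus. It was at 11 and 10.8 RPKM in WT and at 8.12 and 8.79 RPKM in KI. The ratio was 0.78, and each pair of replicates was closer together than the groups were. The means were 10.9 ± 0.132 and 8.46 ± 0.476 RPKM (SD, n = 2 each), a log2 difference of -0.33 with a standard error of 0.07.

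*Dsp* (ENSMUSG00000054889, chromosome 13, 38151294 to 38198577) encodes desmoplakin, which links desmosomes to intermediate filaments. It had the lowest ratio of the 9 genes, 0.63, at 10 and 9.73 RPKM in WT and 5.03 and 7.46 RPKM in KI. The means were 9.87 ± 0.199 and 6.25 ± 1.72 RPKM (SD, n = 2 each). The first KI sample was at 0.51 of the WT mean and the second at 0.76. The log2 difference was -0.61 (moderated standard error 0.17, pooled SD within groups 0.25), and it was -0.36 without KI replicate 1. Its desmosomal partners were nearer to equal between the genotypes, with *Jup* (plakoglobin) at a ratio of 1.12 and *Pkp2* (plakophilin 2) at a ratio of 0.89, both without overlap (adjusted p = 0.630 and 0.608, limma).

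**Figure D2:**
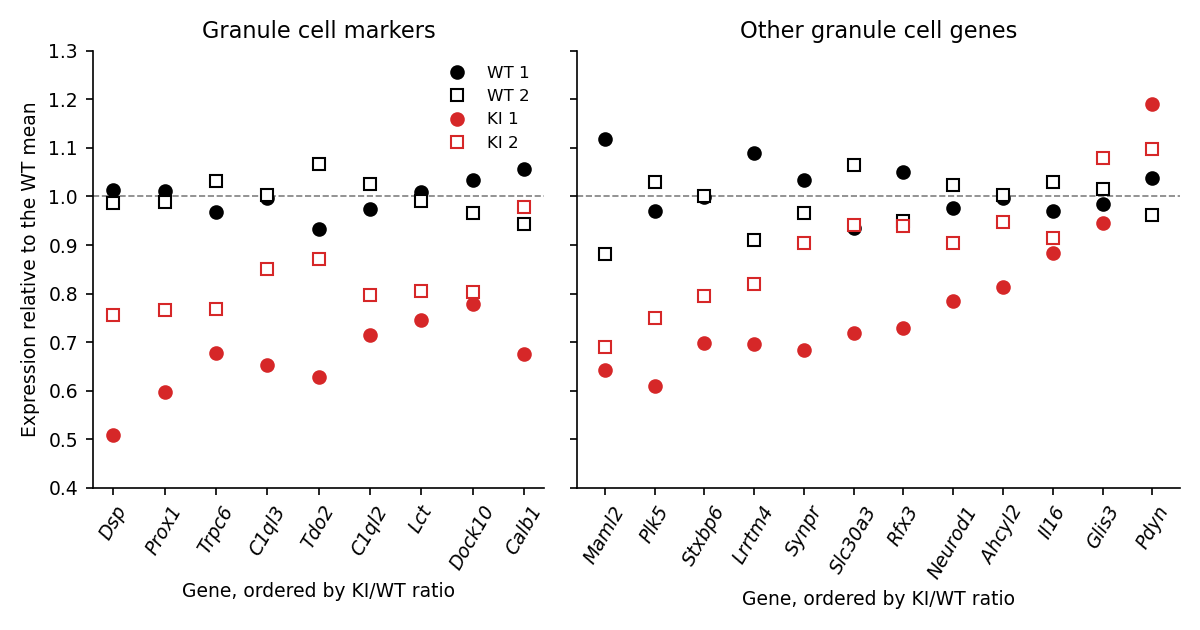
Expression of the 9 granule cell markers (left) and of 12 other granule cell genes (right) in each sample relative to the WT mean of the gene, ordered by the ratio of KI to WT. KI replicate 1 (filled red) is the lowest sample for all 9 markers, and KI replicate 2 (open red) lies between it and the WT samples except for *Calb1*.

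The 2 KI samples differed in size of the difference but not in its direction. KI replicate 1 was the lowest of the 4 samples for all 9 markers, with 0.51 to 0.78 of the WT mean and a median of 0.67. KI replicate 2 had 0.76 to 0.98 of the WT mean and a median of 0.80. It was below both WT samples in 8 of the 9. Among all genes, 52% had a lower value in KI replicate 1 than in KI replicate 2, and 9.8% were ordered as these 8, with KI replicate 1 below KI replicate 2 and both below WT. The gap between the KI samples was widest for *Calb1*, at 0.30 of the WT mean, followed by *Dsp* (0.25) and *Tdo2* (0.24), and narrowest for *Dock10* (0.02) and *Lct* (0.06). WT samples lay between 0.93 and 1.07 of their mean for all 9 markers, with WT replicate 1 the higher in 5 of them.

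KI replicate 1 also stood apart in genes of other cells. *Ttr*, the transthyretin gene of choroid plexus, was at 51.3 RPKM in KI replicate 1 and at 8.13 to 13.8 RPKM in the other 3 samples. The summed level of the 5 choroid plexus genes was 60.6 RPKM in KI replicate 1, most of it *Ttr*, against 14.1 to 19.7 RPKM. All 5 choroid plexus genes (*Ttr*, *Folr1*, *Kl*, *Clic6* and *Kcnj13*) were highest in KI replicate 1, and 3 of the 5 passed the filter on low values. *Folr1* and *Kcnj13*, which did not pass it, had at most 19 and 9 reads in a sample. *Wfs1*, a CA1 marker, was at 28.6 RPKM in KI replicate 1 and at 41.2 to 50.9 RPKM in the others. The CA1 list as a whole did not follow it, with a median log2 difference from WT of 0.03 in KI replicate 1. *Ttr* and *Wfs1* were singled out after their values were seen, and their part in the marker values was not tested. Without KI replicate 1, the median log2 difference of the 9 markers was -0.30, against -0.39 with all samples.

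To place the 9 markers among other genes of the hippocampus, lists of further cell type genes were examined. Of 12 other granule cell and mossy fibre genes, 9 had both KI values below both WT values, 1 was above (*Pdyn*, the prodynorphin gene) and 2 overlapped (*Slc30a3* and *Glis3*). Over all genes, 18.1% lay below and 24% above. None passed the limma thresholds (0 of 12, adjusted p between 0.336 and 0.985). At an unadjusted limma p under 0.05 there were 4, all lower in KI, against 3.33% of all genes. The median log2 difference of the 12 genes was -0.25, against 0.01 over all genes. The median log2 difference from WT was -0.42 in KI replicate 1 and -0.12 in KI replicate 2. These 12 genes were listed with an account of these data already known.

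*Plk5*, a polo-like kinase gene, was at 11.5 and 12.2 RPKM in WT and at 7.22 and 8.89 RPKM in KI (ratio 0.68). *Stxbp6*, which encodes the SNARE-binding protein amisyn, was at 27.9 and 28.0 RPKM in WT and at 19.5 and 22.2 RPKM in KI. Both had separated groups with the first KI sample lowest, as did *Maml2*, a Notch coactivator gene, at 5.16 and 4.06 RPKM in WT and 2.96 and 3.18 RPKM in KI. *Lrrtm4*, which encodes a postsynaptic adhesion protein of granule cell dendrites, had a ratio of 0.76. The vesicle gene *Synpr* (synaptoporin) of mossy fibre terminals had a ratio of 0.79, and *Neurod1*, *Rfx3*, *Ahcyl2* and *Il16* had ratios of 0.85, 0.83, 0.88 and 0.90. Adjusted p from limma was 0.366 for *Plk5*, 0.336 for *Stxbp6*, 0.450 for *Maml2* and 0.490 for *Lrrtm4*. *Pdyn* was at 4.03 and 3.73 RPKM in WT and at 4.62 and 4.26 RPKM in KI.

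**Figure D3:**
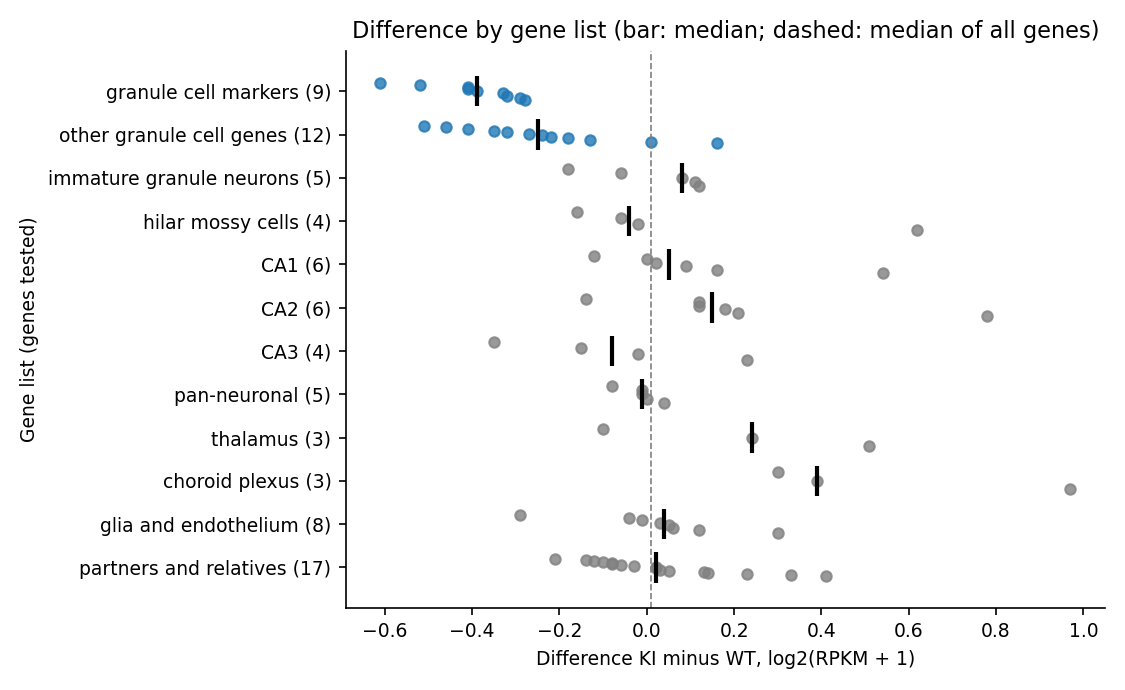
Difference between KI and WT in mean log2(RPKM + 1) for each gene tested (points) of the granule cell markers, of other granule cell genes and of the other lists, with the number of genes tested in brackets, the list median as a bar and the median of all genes as a dashed line. The medians of the 2 granule cell lists are -0.39 and -0.25, and those of the other lists run from -0.08 for CA3 to 0.39 for choroid plexus.

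Genes of other hippocampal neurons were lower, higher or overlapping in different lists. The 5 genes listed as pan-neuronal (*Snap25*, *Syt1*, *Rbfox3*, *Slc17a7* and *Map2*) had ratios between 0.95 and 1.03 and a median log2 difference of -0.01. *Slc17a7*, a gene of glutamatergic neurons rather than of all neurons, was alone separated, below WT. Of the 6 CA1 genes, 0 had both KI values below both WT values (18.1% of all genes). Both lay above in 3 (24% of all genes), *Pou3f1* and *Man1a* among them, and the median log2 difference was 0.05. Of the 6 CA2 genes, 5 had both KI values above both WT values (*Rgs14*, *Pcp4*, *Map3k15*, *Necab2* and *Cacng5*), against 24% of all genes, and *Amigo2* was below. Their median log2 difference was 0.15. Of the 4 CA3 genes, 1 lay above (*Bok*), 2 lay below (*Iyd* and *Cdh24*) and 1 overlapped, with a median of -0.08. In these lists 0 genes passed the thresholds of adjusted p and fold. At an unadjusted limma p under 0.05 the counts were 0 pan-neuronal, 1 CA1, 4 CA2 and 0 CA3 genes. All of them were higher in KI, as were 6.3% of all genes at that p.

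Genes of immature granule neurons and of hilar mossy cells, the nearest neighbours of granule cells in the dentate gyrus, were also examined. Of the 6 immature granule neuron genes, 5 passed the filter on low values (all but *Eomes*), and their median log2 difference was 0.08. *Dcx*, the doublecortin gene of newborn neurons, was at 1.51 and 1.33 RPKM in WT and at 1.65 and 1.59 RPKM in KI. *Sox11*, a transcription factor gene of the same stage, was at 1.89 and 1.86 RPKM in WT and at 1.52 and 1.56 RPKM in KI, and the limma adjusted p was 0.769 for *Dcx* and 0.609 for *Sox11*. Of the 4 mossy cell genes, *Drd2*, the dopamine D2 receptor gene, had both KI values above both WT values, and *Calb2* (also in the immature list), *Calcrl* and *Csf2rb2* overlapped between the groups at ratios of 0.95, 0.83 and 0.97. Across both lists 0 genes passed the test, and *Drd2* was the only gene with an unadjusted limma p under 0.05 (9.62% of all genes, in either direction).

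**Figure D4:**
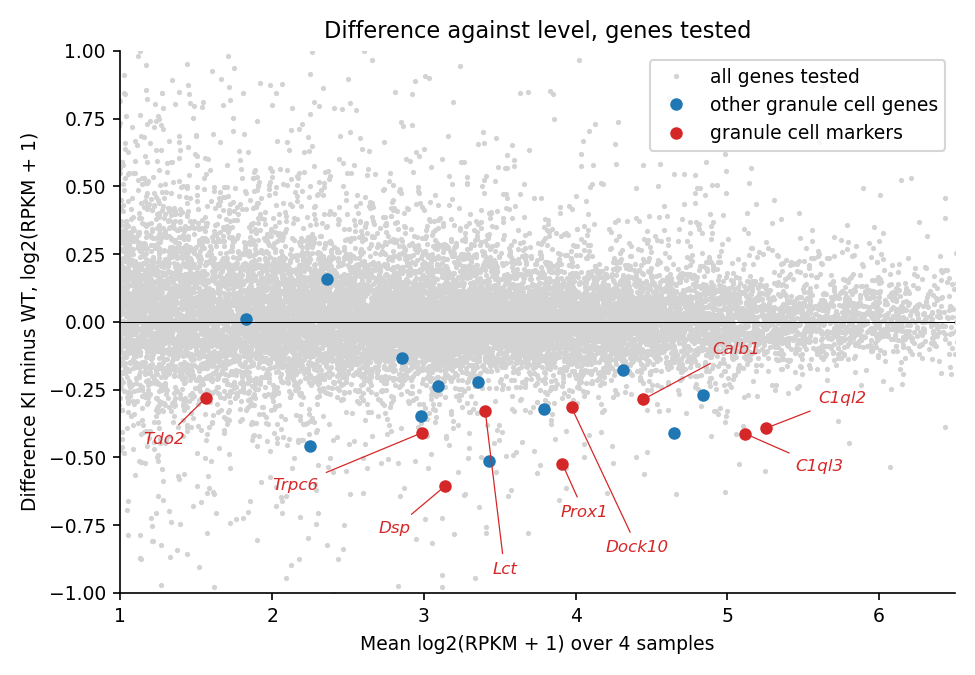
Difference between KI and WT in mean log2(RPKM + 1) against mean log2(RPKM + 1) over the 4 samples for the genes tested (grey), other granule cell genes (blue) and the 9 markers (red, named), within the window drawn, beyond which further genes lie. All 9 markers lie below 0, between -0.28 for *Tdo2* and -0.61 for *Dsp*.

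Set against all 18436 genes, 0.944% had a lower log2 difference than *Dsp*, 1.2% a lower one than *Prox1*, 1.94% a lower one than *C1ql3*, and 3.88% a lower one than *Tdo2*, the marker nearest to 0. The markers were chosen with these values known, so their places are a description and no test. The genes nearest in pattern to the 9 markers were sought among the 9962 other genes with a mean of at least 5 RPKM, by the Euclidean distance between log2(RPKM + 1) values centred over the 4 samples and the mean centred profile of the markers (0.20, 0.20, -0.33 and -0.06 in WT replicate 1, WT replicate 2, KI replicate 1 and KI replicate 2). The 8 nearest were *6530402F18Rik*, *Stxbp6*, *Ntng2*, *Gm9970*, *Dhx33*, *Sec24d*, *Mir6914* and *Gm10145*, at distances of 0.049 to 0.106, where the median gene was at 0.46. *Stxbp6*, already named as a granule cell gene, was second in this order. The other granule cell genes with a mean of at least 5 RPKM came at place 16 (*Synpr*), 22 (*Plk5*), 54 (*Lrrtm4*), 71 (*Rfx3*), 80 (*Neurod1*), 90 (*Slc30a3*), 140 (*Ahcyl2*) and 731 (*Il16*). Among the markers themselves, *C1ql3* was closest to the mean profile (0.073) and *Dsp* farthest (0.262), in a profile that they define. Likeness over 4 samples is a description only. In all 8 nearest genes the ratio of KI to WT was between 0.74 and 0.79, with adjusted p between 0.336 and 0.543 from limma.

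The 9 genes are spread over 6 chromosomes. *Prox1*, *C1ql2*, *Lct* and *Dock10* are on chromosome 1, and the other 5 are on chromosomes 2, 3, 4, 9 and 13. *Calb1* is on chromosome 4, as is *Kdm1a* (136550540 to 136602723).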

How the data were processed

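RNA-seq of hippocampal poly(A) RNA from 2 WT and 2 *Lsd1* KI samples was analysed. The authors processed the runs with CASAVA, used GSNAP for alignment to mm10, discarded pairs without a unique and proper placement, and deposited RPKM for each gene of Ensembl release 74 in 1 file per sample. The counting tool and any use of strand are not given in the sources used here.

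Log2(RPKM + 1) was compared between groups with limma 3.58.1 (R 4.3.3, mean-variance trend). Standard errors of log2 differences are the moderated ones of this fit. P-values were adjusted by Benjamini-Hochberg across 18436 genes that reached 0.5 RPKM in 2 or more samples. The thresholds were 0.1 for the adjusted p and 1.2-fold for the difference. This scale understates the change of low genes. The code was tested on simulated data, with success required only for larger changes and more samples per group than here. That test therefore does not show how many true changes the present comparison would miss. Depth was worked out from the smallest steps of RPKM with GENCODE M21 exon lengths (GRCm38), and reads per gene from the exon length nearest to it at which all 4 values were whole within 0.02 reads. With M21 lengths, 73.8% to 76.0% of the values of up to 50 reads were whole within 0.02 reads, so reads were not recovered for all genes and no count model was used. Symbols matched 25729 of 26328 gene IDs. Precision is limited by 2 samples per group.

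Sequences are from RefSeq (GRCm38.p6). The 9 members and all gene lists were chosen with earlier results of these data known. Genes of the lists were to be named where they passed the thresholds or where both KI values lay on one side of both WT values, and otherwise counted. Some genes of the lists are not reported here by name. Overlapping genes named in the text are exceptions made after their values were seen. The genes nearest in pattern were the 8 with the smallest distance. Alternatives were the pseudocount, filter, fold, scaling, trend, replicate block and each sample left out. Python 3.11.15 served for the other steps.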

Additional observations from a re-analysis of the deposited data

How the results depend on the processing

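The log2 difference of each of the 9 markers stayed below 0 with a pseudocount of 0.1, with median ratio scaling and with each sample left out. The other alternatives cannot alter the difference of a gene. The median over the 9 was -0.39, -0.41 under either of the first 2 settings, and between -0.49 and -0.30 as each sample was left out. For single genes with 1 sample left out, *Calb1* ran from -0.54 to -0.03 (without KI replicate 1), *Dsp* from -0.85 to -0.36, *C1ql3* from -0.60 to -0.23 and *Tdo2* from -0.43 to -0.13, while *Dock10* stayed between -0.36 and -0.27. The number of markers past the limma thresholds was 0 in every fit. Fits without 1 sample assume that the lone sample of its group varies like the other group.

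Over all genes the count past the thresholds was 0 in the comparison reported and also with a pseudocount of 0.1, no filter, a fold of 1.5, median ratio scaling, the replicate block and with each sample left out. It was 20 without the mean-variance trend, and the cause was not tested. Chosen after seeing the data, a filter of at least 10 reads in every sample gave 1, and this filter with the replicate block gave 51, among them 1 gene of the lists outside the markers (*Cacng5*, a CA2 gene). The cause of this was not tested either. Samples of the 2 groups share replicate numbers, but deviations from the group mean of samples with the same number had a Pearson correlation of -0.025 over 18436 genes, so the numbers were not treated as pairs, and the replicate block alone changed no call.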

Other observations

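Some genes of other tissues and of blood vessels also separated between the groups, although 0 of them passed the limma thresholds. *Kl*, the klotho gene of choroid plexus that neurons also express, was at 4.87 and 5.14 RPKM in WT and at 7.05 and 6.72 RPKM in KI (log2 difference 0.39, adjusted p = 0.340 from limma), so both KI samples were higher, unlike *Ttr*. *Prkcd*, a protein kinase C gene prominent in thalamus, was at 7.88 and 6.48 RPKM in WT and at 12.4 and 9.07 RPKM in KI (adjusted p = 0.490 from limma), and *Ramp3* was at 1.35 and 1.56 RPKM in WT and at 1.76 and 2.04 RPKM in KI, whereas *Lef1*, also of thalamus, was at 0.689 and 0.681 RPKM in WT and at 0.490 and 0.649 RPKM in KI. Of the 3 thalamus genes that passed the filter on low values, 2 lay above and 1 below, with a median log2 difference of 0.24. *Tcf7l2*, the remaining gene of the thalamus list, did not pass the filter. Both its KI values lay below both WT values, at a ratio of 0.83. *Pecam1*, an endothelial adhesion gene, was at 3.21 and 3.55 RPKM in WT and at 4.13 and 4.62 RPKM in KI, while *Cldn5*, a tight junction gene of the same cells, overlapped between the groups.

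The 8 glial and endothelial genes had a median log2 difference of 0.04, with 2 above (*Aldh1l1* and *Pecam1*), 1 below (*P2ry12*) and 5 overlapping. Over all genes, 24% lay above and 18.1% below. *P2ry12*, a microglial receptor gene, was at 16.1 and 16.8 RPKM in WT and at 15.5 and 11.4 RPKM in KI, lower mainly in KI replicate 2, the sample in which the granule cell markers were nearer to WT. *Cx3cr1*, also a microglial receptor gene, overlapped between the groups, at 12 and 11.9 RPKM in WT and at 12.7 and 11.7 RPKM in KI.

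In the CA2 list, *Cacng5* was at 3.99 and 3.01 RPKM in WT and at 8.80 and 5.04 RPKM in KI, and *Necab2* at 33.5 and 31.3 RPKM in WT and at 36.7 and 38.6 RPKM in KI. In the CA3 list, *Iyd* was at 3.86 and 3.56 RPKM in WT and at 3.13 and 2.31 RPKM in KI, and *Bok* at 26.3 and 26.1 RPKM in WT and at 27.9 and 34.3 RPKM in KI. In both CA3 genes KI replicate 2 was farther from WT than KI replicate 1, the reverse of the order seen in the 9 granule cell markers.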
